A study of Mus musculus with 4 samples.

Results

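Cajal-Retzius neurons of the mouse hippocampus were examined in single-nucleus RNA counts. A nucleus was taken as a Cajal-Retzius nucleus when it had at least 500 unique molecular identifiers (UMIs, each counting 1 captured RNA molecule) and at most 5% mitochondrial UMIs. It also needed at least 1 Reln UMI, UMIs of at least 2 of the 4 genes Trp73, Lhx1, Lhx5 and Ndnf, no UMI of Gad1 or Gad2, and UMIs of at most 1 of the 6 glial or vascular genes Mog, Mag, Aqp4, Pdgfra, Inpp5d and Flt1. The nuclei were thus chosen by measured values, the UMIs of these genes, and nothing below rests on those genes as evidence. The rule found 369 of 32048 barcodes, which were 140 nuclei of the wild-type (WT) library, 61 and 63 nuclei of PS19 replicates 1 and 2, and 105 nuclei of the TG_PS19 library.

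Each library was made from pooled, frozen hippocampi and profiled with a 10x Genomics 3′ kit. PS19 mice, on a mixed B6;C3 background, carry a human MAPT transgene encoding 1N4R tau with the P301S mutation, driven by the prion (Prnp) promoter. TG_PS19 mice are PS19 mice that also overexpress SORLA, the sorting receptor encoded by Sorl1, from the Rosa26 locus through a CMV/β-actin promoter, which is not restricted to neurons. Nothing in the labels gives the WT or PS19 animals a SORLA transgene; SORLA knockout mice were bred for the study and are not analysed here. The age, the sex and the number of pooled animals were not given in the sources used here. Because WT and TG_PS19 had 1 library each, only the PS19 pair measured a spread between libraries, and whether that pair came from separate animals is not stated, so the p-values below measure only the spread between these samples, which may be technical.

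Cajal-Retzius neurons are among the earliest neurons of the cortex and hippocampus. They lie in the outermost layer, next to the hippocampal fissure, and secrete reelin, a large extracellular protein that binds the receptors Vldlr and Lrp8 on other neurons, acts through the adaptor Dab1 and guides neuronal migration and dendrite growth. Most of them die after birth in the neocortex, while many persist in the adult hippocampus. Trp73, a member of the p53 family, and the LIM homeobox factors Lhx1 and Lhx5 mark them during development, and they are glutamatergic neurons that use the vesicular transporter Slc17a6.

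The Cajal-Retzius nuclei were small in RNA content beside other neurons. The median nucleus held 2333 UMIs in WT, 2716 and 3038 in PS19 and 2359 in TG_PS19, with extremes of 562 and 14438. Neurons with at least 2 Slc17a7 UMIs, which stand for the principal excitatory neurons and are called Slc17a7 neurons below, held medians of 8655, 10571, 12268 and 9986 UMIs in the same order. In all, the nuclei gave 358985 UMIs in WT, 183422 and 219098 in PS19 and 301581 in TG_PS19. No barcode was shared between the Cajal-Retzius nuclei of any 2 libraries. Xist, the RNA that coats the inactive X chromosome of females, was found in 65 of the 105 TG_PS19 nuclei and in none of the other 3 libraries, and UMIs of Y-linked genes were found in 92, 44 and 46 nuclei of WT and the PS19 replicates but in 18 of TG_PS19. The mix of sexes therefore differed between TG_PS19 and the other pools, and sex and the SORLA transgene cannot be told apart in any comparison with TG_PS19.

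The identity genes that chose the nuclei are given as a description. Levels are counts-per-million (CPM), the UMIs of a gene scaled by all UMIs of the Cajal-Retzius nuclei of a library. Reln stood at 7683 CPM in WT, 10402 and 10525 in PS19 and 8794 in TG_PS19, against 4.28 to 10.5 in Slc17a7 neurons and 293 to 575 in inhibitory neurons. No nucleus passed with a single Reln UMI, the median being 19 Reln UMIs in WT, 28 and 33 in PS19 and 23 in TG_PS19. Ndnf, a secreted factor, stood at 2554, 2688, 2465 and 2036 CPM. Trp73 stood at 763, 905, 808 and 723 CPM and Lhx1 at 228, 218, 237 and 162. Lhx5 was the least abundant of the 5, at 75.2, 65.4, 95.8 and 49.7 CPM.

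Most of the nuclei were found through Trp73 and Ndnf. The pair of Trp73 and Ndnf alone was carried by 180 of 369 nuclei, or 48.8%, and Trp73, Lhx1 and Ndnf together by 99. All 4 genes were present in 18 nuclei and at least 3 of them in 153. At least 3 were present in 44.3% of the WT nuclei, in 45.9% and 55.6% of those from PS19 and in 26.7% of those from TG_PS19, so the TG_PS19 set rested more on pairs of genes. Detection depends on depth: in nuclei thinned at random to 2000 UMIs, Trp73 was detected in 80.5% of 87 nuclei from WT, 86.0% of 50 and 78.9% of 57 from PS19, and 69.6% of 69 from TG_PS19. Without thinning, the shares were 90.7%, 95.1%, 93.7% and 86.7%, against 0.811% to 1.99% of Slc17a7 neurons.

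At the edge of the rule, nuclei with exactly 2 of the 4 genes numbered 78, 33, 28 and 77, while 53, 14, 4 and 31 nuclei met every other condition with only 1 gene. Ebf3 was detected in 59.0% of the WT nuclei just inside that limit and in 37.7% of those just outside, and in 53.2% and 41.9% in TG_PS19. The nuclei just outside had a median of 11 Reln UMIs in WT and 17 in TG_PS19. The condition on Gad1 and Gad2 removed 3 WT nuclei and 0 in the other libraries.

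Genes that the rule did not name also set the nuclei apart. The nuclei were chosen for identity, so these levels are a description and carry no test. Cacna2d2, a calcium-channel subunit, stood at 708, 949, 749 and 633 CPM against at most 4.28 in Slc17a7 neurons. Ebf3, an Early B-cell factor that marks Cajal-Retzius cells, stood at 524, 540, 502 and 345 CPM against at most 1.14. Tmem163, a zinc transporter of vesicles, stood at 1045, 1118, 1054 and 746 CPM against at most 14.3. All 3 genes were lowest in TG_PS19, and the 4 libraries of Cajal-Retzius nuclei lay far above every library of the other neurons.

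Further transcription factors and adhesion genes were high in these nuclei. Dach1, a transcription factor, stood at 2031, 2382, 2319 and 1973 CPM, against 31.7 to 40.5 in Slc17a7 neurons, and the cadherin Cdh4 at 1061, 1439, 1429 and 968. Emx2, a homeobox factor of the medial cortex, stood at 153, 169, 215 and 116 CPM, and Lhx1os, a long non-coding RNA at the Lhx1 locus, at 128, 147, 105 and 139. Several non-coding genes were also among the leading genes: Gm10475 (593, 572, 680 and 739 CPM) lies on chromosome 5 from 21910931 to 21954014 on the plus strand of GRCm38, inside Reln, which runs from 21884454 to 22344702 on the minus strand. The strand setting of the counting was not given in the sources used here, so Gm10475 and Reln reads may not be fully separated.

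**Figure D1:**
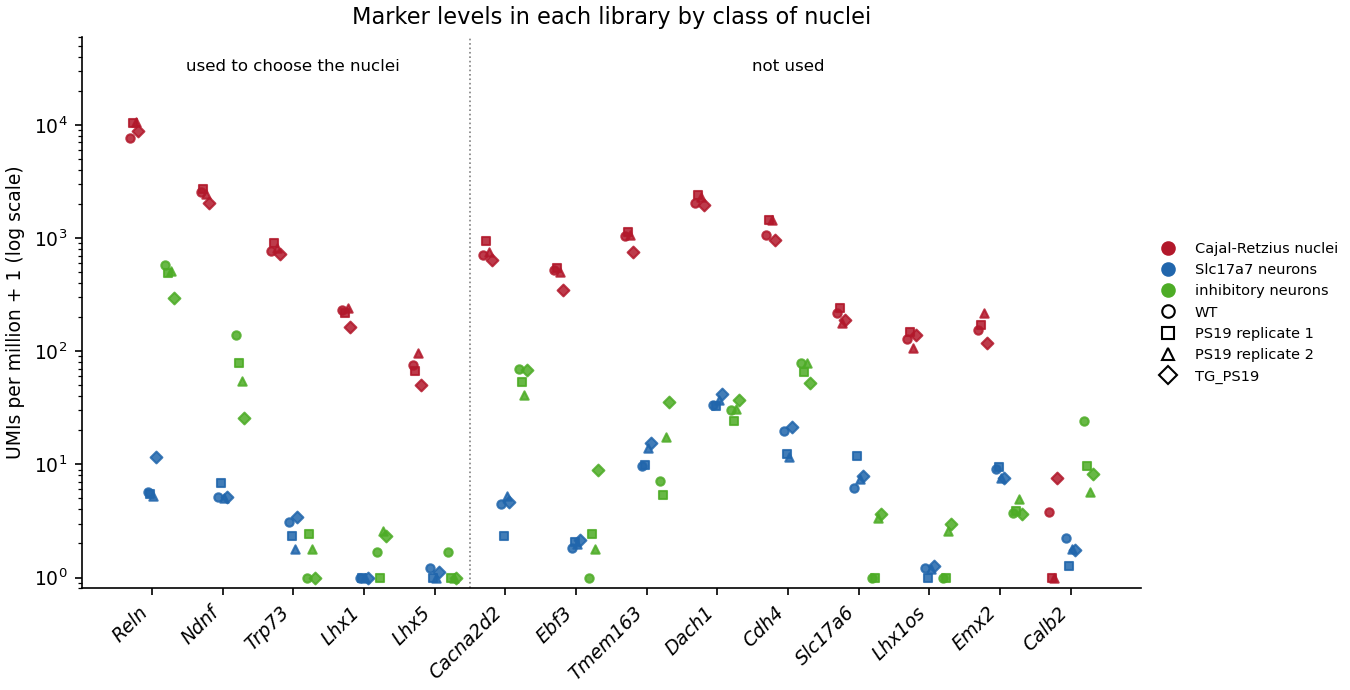
Levels of 14 genes, as CPM plus 1 on a log axis, in each of the 4 libraries (marker shapes) for Cajal-Retzius nuclei, Slc17a7 neurons and inhibitory neurons (colours). The 5 genes left of the dotted line chose the nuclei; of the 9 others, 8 lay higher in the Cajal-Retzius nuclei of all 4 libraries than in either other class, and Calb2 was near 0.

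Some markers known from the developing brain were scarce. Calb2, which encodes calretinin, had 1 UMI in WT, 0 in both PS19 replicates and 2 in TG_PS19, and Nxph3 had 0, 1, 0 and 0. Ebf2 had 3, 0, 1 and 3 UMIs and Cxcr4, the chemokine receptor that positions migrating Cajal-Retzius cells, 6, 4, 5 and 7. Of other listed markers, Tbr1 and Car10 were also found in Slc17a7 neurons. Tbr1 was detected in 9.29%, 19.7%, 9.52% and 8.57% of Cajal-Retzius nuclei against 5.51% to 8.92% of Slc17a7 neurons. Car10 was detected in 90.2% to 100% against 55.6% to 65.2%. Zic1, Nhlh2 and Dmrt3 were each detected in at most 1.97% of Slc17a7 neurons. Of the 16 markers outside the rule that were listed, 11 had enough UMIs to be tested between groups. Markers of inhibitory neurons summed to 16.4 to 72.4 CPM in the Cajal-Retzius nuclei against 5071 to 6807 in inhibitory neurons, with Gad1 and Gad2 at 0 by the rule and Slc32a1 at 0 in all 4 libraries. Markers of pyramidal neurons summed to 13.7 to 106 CPM against 413 to 499 in Slc17a7 neurons, and were highest in TG_PS19.

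Genes of transmitter storage and of ion channels also differed from other neurons. Slc17a6, the vesicular glutamate transporter, stood at 217, 240, 178 and 189 CPM, against 5.15 to 10.8 in Slc17a7 neurons. The potassium-channel subunits Kcnh7 (6465, 6662, 6705 and 6181 CPM) and Kcnb2 (6073, 5779, 6636 and 5325 CPM) stood well above Slc17a7 neurons, where the ranges were 724 to 890 and 663 to 789. The guidance receptor Robo2 stood at 4744, 5256, 5249 and 5150 CPM, against 657 to 828. Cntnap2, a neurexin-family adhesion gene, stood between 8602 and 11105 CPM, against 1623 to 2041 in Slc17a7 neurons.

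Genes of glutamate reception were low. The 20 listed glutamate receptor genes summed to 5499, 5065, 5372 and 7086 CPM, against 18896 to 20206 in Slc17a7 neurons. The subunits that were present were AMPA receptor genes: Gria2 stood at 1345, 1450, 1492 and 1575 CPM and Gria4 at 955, 976, 1191 and 1048, the latter above the 253 to 292 of Slc17a7 neurons. The NMDA receptor subunit Grin2a stood at 206, 27.3, 9.13 and 497 CPM, against 2713 to 3114 in Slc17a7 neurons. GABA-A receptor genes summed to 1727, 1439, 1492 and 1837 CPM against 4519 to 4753.

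The share of Cajal-Retzius nuclei was 1.10% of nuclei in WT, with a 95% exact binomial interval from 0.924% to 1.29%. The PS19 replicates gave 1.31% (1.01% to 1.68%) and 1.28% (0.985% to 1.63%), and TG_PS19 gave 1.08% (0.884% to 1.31%). These 4 intervals overlapped. They cover counting error only, and no test of the shares was run, since WT and TG_PS19 had 1 library each. Of the neurons and Cajal-Retzius nuclei together, the share was 4.57% in WT, 6.64% and 5.92% in PS19 and 4.33% in TG_PS19. Both PS19 values lay above the other 2 on this scale, with a WT interval of 3.86% to 5.37% that overlapped those of both PS19 replicates.

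The share also depended on how many genes the rule asked for. Nuclei with at least 3 of the 4 genes made up 0.486% of WT, 0.603% and 0.711% of the PS19 replicates and 0.288% of TG_PS19. These values count the genes that chose the nuclei and are a description. When every nucleus was thinned to 2000 UMIs before the rule was applied, the shares were 0.886%, 1.22%, 1.14% and 0.884%. In pooled tissue, fewer nuclei of a type and less RNA per nucleus cannot be told apart where a rule counts detected genes.

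**Figure D2:**
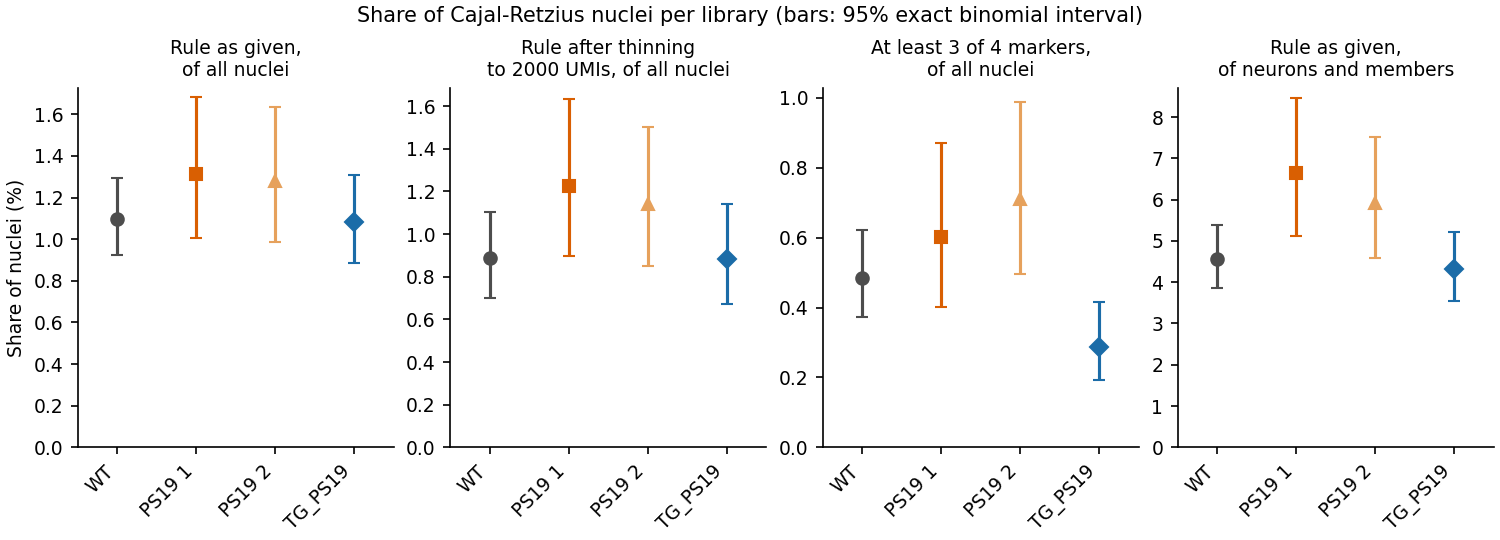
Share of Cajal-Retzius nuclei in each library (points) with its 95% exact binomial interval (bars), in percent, under 4 definitions. The thinned panel covers only nuclei with at least 2000 UMIs. PS19 replicates sat above WT and TG_PS19 in each panel, with overlapping intervals for the rule as given and TG_PS19 lowest, at 0.288%, where at least 3 of 4 genes were required.

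In Cajal-Retzius nuclei, the human transgenes were detected only in libraries whose labels name them. Human MAPT had 0 UMIs in WT, 11 and 6 in PS19 and 10 in TG_PS19, or 0, 59.97, 27.4 and 33.2 CPM. It was detected in 16.4% and 9.52% of PS19 nuclei and in 7.62% of TG_PS19 nuclei, and the count of 0 in WT allowed a level of up to 8.36 CPM (3 counts over the library). The summed PS19 level was at least 5.05-fold higher than WT, taking 3 counts over the WT library as the limit of a count of 0. By edgeR's quasi-likelihood test across all genes the difference was not called in these nuclei (adjusted p = 0.27), whereas it was in Slc17a7 neurons (adjusted p = 1.3e-08). Human SORL1 had 10 UMIs in TG_PS19, in 9.52% of its nuclei, and 0 UMIs in the other 3 libraries, which allowed up to 8.36 CPM in WT and 16.4 and 13.7 in PS19.

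Endogenous Mapt was present at 240 CPM in WT, 229 and 278 in PS19 and 209 in TG_PS19, close to the 269 to 335 of Slc17a7 neurons. Mouse Prnp, the gene of the prion protein, stood at 89.1, 125, 119 and 96.2 CPM, with PS19 above WT by 0.46 ± 0.39 (log2, SE; adjusted p = 1 by edgeR). In Slc17a7 neurons Prnp was higher in PS19 by 0.66 (adjusted p = 0.018). Mouse Sorl1 was scarce in Cajal-Retzius nuclei, with 11, 1, 2 and 6 UMIs or 30.6, 5.45, 9.13 and 19.9 CPM, against 113 to 141 CPM in Slc17a7 neurons. Reads of close homologues could be counted under the gene of the other species.

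For the comparison of groups, UMIs were summed over the Cajal-Retzius nuclei of each library and tested with edgeR's quasi-likelihood test with Benjamini-Hochberg adjustment, calling genes at an adjusted p under 0.05. PS19 was set against WT for the tau transgene, TG_PS19 against PS19 for added SORLA, and TG_PS19 against WT for what remains different. The comparisons with TG_PS19 also hold the difference in the mix of sexes, and each comparison has a group of 1 library. None of them therefore isolates a transgene. Of 6357 genes tested, 57 (0.897%) were called in PS19 against WT, 9 higher (0.142%) and 48 lower (0.755%). In TG_PS19 against PS19, 121 (1.9%) were called, 110 higher (1.73%) and 11 lower (0.173%). The comparison of TG_PS19 with WT gave 26 (0.409%), 22 higher (0.346%) and 4 lower (0.0629%). With DESeq2 on the same sums, 0, 15 and 1 genes were called, so none of the calls of PS19 against WT below held with that tool, where 43 genes had an unadjusted p under 0.05. The first and second comparisons share the PS19 libraries and the others share a group as well, so their lists are not independent.

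Many of these calls lay in genes with low levels in Cajal-Retzius nuclei. Of the 48 genes lower in PS19, 41 (85.4%) were at least 4-fold lower in Cajal-Retzius nuclei than in Slc17a7 neurons, and so were 79 of the 108 genes higher in TG_PS19 than in PS19 that were not sex-linked (73.1%). Of the 20 such genes higher in TG_PS19 than in WT, 9 were. Over all genes tested the figure was 198 of 6357, or 3.11%. None of the 9 genes higher in PS19 than WT was of this kind.

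A few nuclei carried those RNAs. A set of 30 genes with the lowest level in Cajal-Retzius nuclei relative to Slc17a7 neurons, among genes above 300 CPM in both Slc17a7 and inhibitory neurons, took a median of 0.0829% of the UMIs of a WT nucleus, 0.0314% and 0.0428% in PS19 and 0.0750% in TG_PS19. In Slc17a7 neurons the medians were 4.44% to 4.85%. In 4 WT and 5 TG_PS19 nuclei the share was over 1%, from 1.95% to 3.57% in WT and 1.38% to 5.15% in TG_PS19, and no PS19 nucleus exceeded 0.330%. These 9 nuclei held 76.4% of the UMIs of the 30 genes in WT and 88.7% in TG_PS19. They met the rule with 5 to 31 Reln UMIs and 2246 to 14438 UMIs in all, 5 of them carried Slc17a7 UMIs, and 3, all of WT, were among the highest doublet scores of their library.

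**Figure D3:**
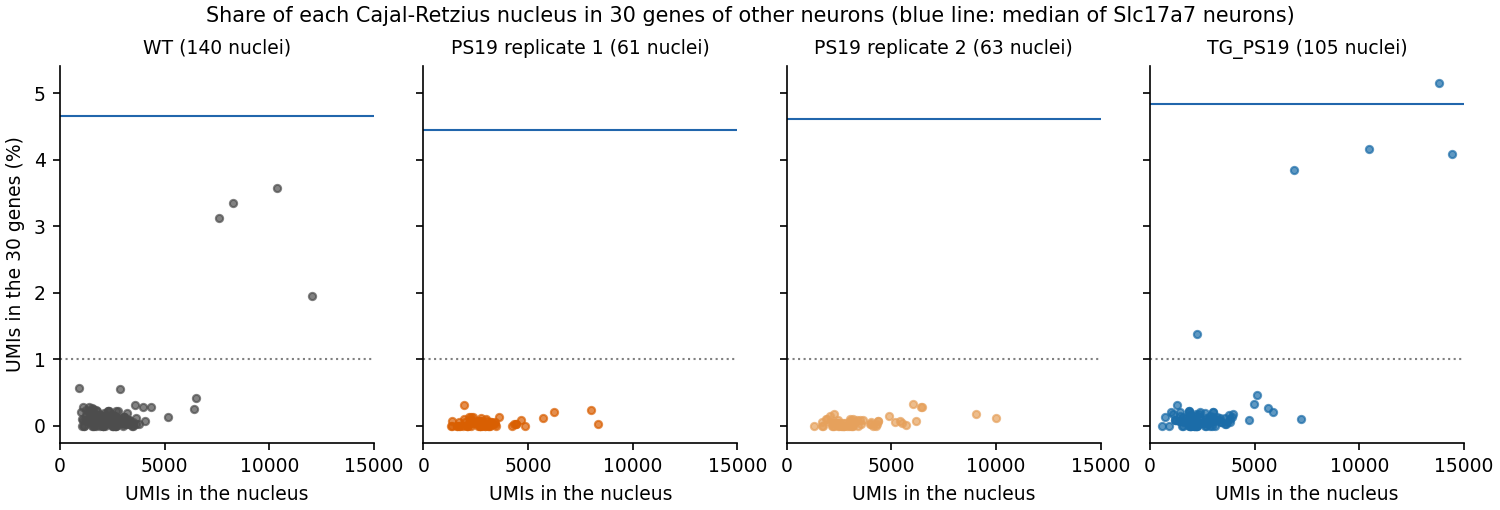
Percent of the UMIs of each Cajal-Retzius nucleus (point) that fell in the 30 genes of other neurons, against the UMIs of the nucleus, by library, with the median of Slc17a7 neurons as a blue line. Above the dotted line at 1% lie 4 WT and 5 TG_PS19 nuclei and no PS19 nucleus.

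Without these 9 nuclei, a choice made after seeing the data, 5991 genes were tested and the calls fell to 7 (0.117%) for PS19 against WT, with 3 higher (0.0501%) and 4 lower (0.0668%). The comparison of TG_PS19 with PS19 gave 28 (0.467%), of which 24 were higher (0.401%) and 4 lower (0.0668%), and that of TG_PS19 with WT 8 (0.134%), 7 of them higher (0.117%) and 1 lower (0.0167%). All 7, 26 of the 28 and all 8 were also among the calls over all nuclei. The nuclei were set apart by the levels of such genes, so the loss of those genes follows in part from the choice. Whether the 9 nuclei were doublets, nuclei with RNA of neighbours or another kind of neuron was not tested.

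**Figure D4:**
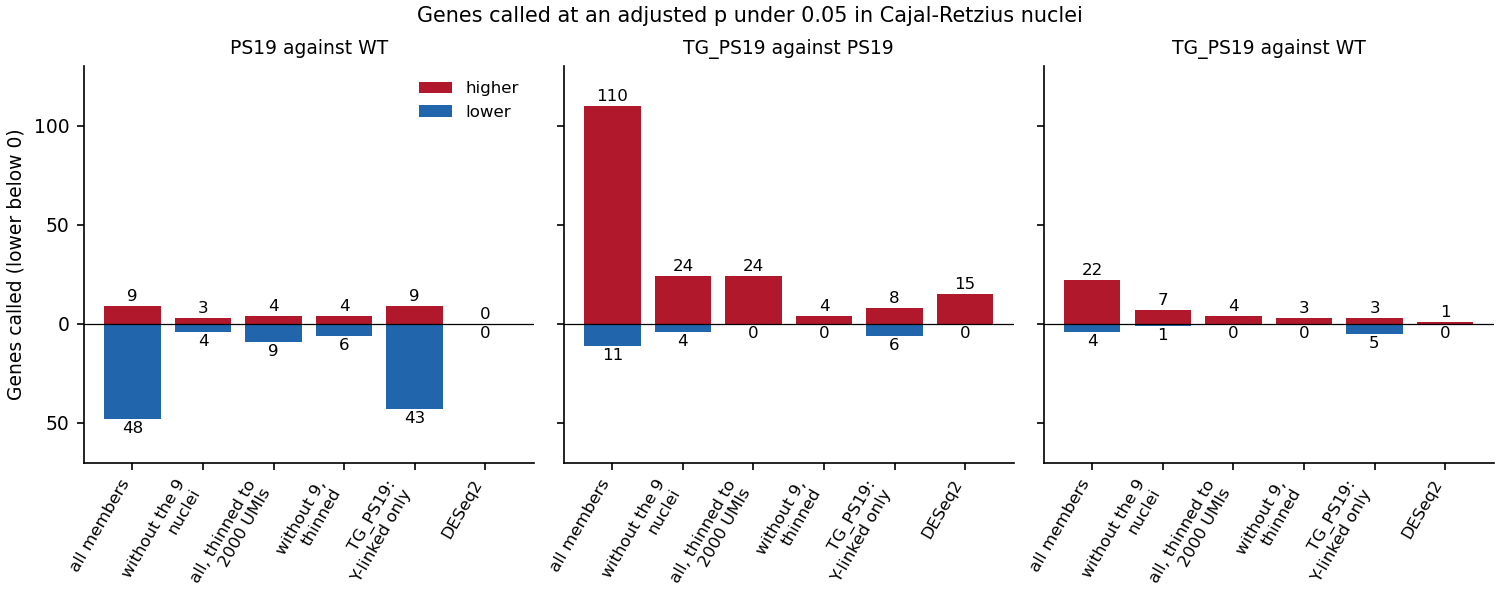
Genes called higher (above 0) and lower (below 0) in the 3 comparisons, for all nuclei, without the 9 nuclei, after thinning to 2000 UMIs with and without the 9, with TG_PS19 nuclei limited to those with Y-linked and no Xist UMIs, and with DESeq2. The 48 genes lower in PS19 fell to 4 without the 9 nuclei, and the 110 higher in TG_PS19 than in PS19 fell to 24.

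In PS19 against WT, the lower calls with the largest changes included Csmd1, Grin2a, Grm5, Ryr2, Ryr3, Shisa9, Egfem1 and Unc5d. Csmd1 had 189 UMIs in WT, 2 and 11 in PS19 and 275 in TG_PS19, and was lower in PS19 by 4.00 ± 0.37 (log2, SE; adjusted p = 1.3e-23 by edgeR). A single nucleus held 54 of the 189 WT UMIs, and without the 9 nuclei the difference was -1.82 ± 0.50 with an adjusted p of 0.13. Grin2a had 74, 5, 2 and 150 UMIs, differed by -3.52 ± 0.48 with all nuclei (adjusted p = 3.4e-10) and by -1.39 ± 0.96 (adjusted p = 1) without the 9. The metabotropic receptor gene Grm5 had 48, 3, 0 and 89 UMIs, a WT level 17.9 times that of PS19 (counting interval 5.78 to 90.0).

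The ryanodine receptors, calcium channels of the endoplasmic reticulum, had the same distribution. Ryr2 had 35, 1, 0 and 44 UMIs and Ryr3 had 12, 0, 0 and 38, so that Ryr3 was at least 4.49-fold lower in PS19 than in WT. Shisa9, an AMPA receptor partner, had 27, 0, 0 and 11 UMIs and was at least 10.1-fold lower. Egfem1 had 42, 1, 0 and 71 UMIs, and Unc5d, a netrin receptor, 42, 1, 2 and 26. Of these, Ryr2, Ryr3, Shisa9, Egfem1 and Unc5d were too low to be tested once the 9 nuclei were left out. In Slc17a7 neurons, where they are abundant, none of Csmd1, Grin2a, Grm5, Ryr2, Ryr3, Shisa9, Egfem1 and Unc5d was called between PS19 and WT, with adjusted p from 0.75 to 0.99.

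Genes higher in PS19 than in WT included non-coding RNAs, enzymes, a receptor and a transcription factor. Gm43049, a long non-coding RNA on chromosome 3 from 140692038 to 140760704 (minus strand, GRCm38), had 0 UMIs in WT, 6 and 18 in PS19 and 25 in TG_PS19. Its level was at least 7.13-fold higher in PS19 than in WT (adjusted p = 0.00039 by edgeR) and at least 9.92-fold higher in TG_PS19 than in WT (adjusted p = 7.4e-05), and all 3 transgenic libraries lay above WT. The adjusted p values were 0.016 and 0.018 when the 9 nuclei were left out. Slc17a7 neurons gave 0.101 CPM in WT, 63.0 and 76.7 in PS19 and 120 in TG_PS19 (adjusted p = 2.5e-11 for PS19 against WT). As background, the PS19 transgene is known to have integrated on the same chromosome; any relation to this RNA was not tested.

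B230323A14Rik, an antisense RNA on chromosome 9 from 69758740 to 69830845 (plus strand, GRCm38), stood at 72.4 CPM in WT, 354 and 132 in PS19 and 113 in TG_PS19. It was higher in PS19 by 1.72 ± 0.37 (log2, SE; adjusted p = 0.0009 by edgeR) and by 1.55 ± 0.37 without the 9 nuclei (adjusted p = 0.024). PS19 replicate 1 stood well above replicate 2, and without it the difference was 0.90. In Slc17a7 neurons it was at most 4.28 CPM.

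Pik3c2g, a lipid kinase, and Gm31938, a long non-coding RNA, were also far above their level in Slc17a7 neurons, where both stood at 2.34 CPM or less. Pik3c2g stood at 125 CPM in WT, 327 and 288 in PS19 and 225 in TG_PS19, higher in PS19 by 1.30 ± 0.32 (adjusted p = 0.0098 by edgeR), and Gm31938 at 83.6, 196, 269 and 113, higher by 1.498 ± 0.36 (adjusted p = 0.0063). In both genes each PS19 replicate lay above WT and TG_PS19. With the 9 nuclei left out, the differences were 1.16 ± 0.32 and 1.33 ± 0.36, with adjusted p of 0.16 and 0.13. Arhgef3, a guanine nucleotide exchange factor, stood at 52.9, 164, 155 and 123 CPM and was higher by 1.59 ± 0.41 (adjusted p = 0.016), and by 1.42 ± 0.41 without the 9 nuclei (adjusted p = 0.21).

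Htr2b, a serotonin receptor gene, had 1 UMI in WT, 14 and 7 in PS19 and 19 in TG_PS19. The PS19 level was 18.7 times the WT level, with a counting interval of 3.01 to 775 (adjusted p = 0.028 by edgeR, and 0.24 without the 9 nuclei). Ebf1, another Early B-cell factor and the only one of the 11 tested Cajal-Retzius markers outside the rule to be called, stood at 75.2 CPM in WT, 147 and 251 in PS19 and 63.0 in TG_PS19. It was higher in PS19 than WT by 1.43 ± 0.38 (adjusted p = 0.018 by edgeR) and lower in TG_PS19 than PS19 by 1.61 ± 0.40 (adjusted p = 0.0057). Over all genes tested, 0.142% were called higher in the former comparison and 0.173% lower in the latter. Only 13, 7, 10 and 10 nuclei carried Ebf1 UMIs, and neither difference of Ebf1 was called without the 9 nuclei (adjusted p = 0.24 and 0.095).

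Galntl6, a glycosyltransferase-like gene, had many of its UMIs in single nuclei. It had 54 UMIs in WT, 408 and 45 in PS19 and 290 in TG_PS19, and 188 of the 408 lay in 1 nucleus of PS19 replicate 1 and 110 of the 290 in 1 nucleus of TG_PS19. It was called higher in PS19 by 2.99 ± 0.28 (adjusted p = 1e-22 by edgeR), yet PS19 replicate 2, at 205 CPM, was close to the 150 CPM of WT. Without PS19 replicate 1 the difference was 0.48.

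The lower calls that remained without the 9 nuclei included Cst3, Ptgds and Luzp2, of which Cst3 and Ptgds are best known from glia, meninges and choroid plexus. Cst3, a secreted protease inhibitor, stood at 911, 491, 429 and 832 CPM, lower in PS19 by 0.98 ± 0.24 (log2, SE; adjusted p = 0.0082 by edgeR) and higher in TG_PS19 than in PS19 by 0.92 ± 0.24 (adjusted p = 0.012). Both PS19 replicates lay below WT and TG_PS19.

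Ptgds, which makes prostaglandin D, stood at 719 CPM in WT, 273 and 447 in PS19 and 471 in TG_PS19, and Luzp2, a leucine-zipper gene, at 387, 125, 178 and 186. Both were lower in PS19 than in WT, by 0.97 ± 0.26 (adjusted p = 0.022 by edgeR) and 1.32 ± 0.30 (adjusted p = 0.0019). Cst3 and Luzp2 were also lower in Slc17a7 neurons of PS19. There Cst3 differed by -1.09 (adjusted p = 1.5e-05) and Luzp2 by -0.64 (adjusted p = 0.0035), while Ptgds differed by -0.43 (adjusted p = 0.26).

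The glial marker lists ran alongside. The 5 oligodendrocyte markers summed to 685 CPM in the WT Cajal-Retzius nuclei, 420 and 237 in PS19 and 773 in TG_PS19, and the 6 astrocyte markers to 1465, 731, 1210 and 1263. In Slc17a7 neurons the oligodendrocyte markers summed to 247, 180, 164 and 249 CPM and the astrocyte markers to 592, 391, 365 and 511. Every oligodendrocyte and astrocyte marker had UMIs in the nuclei of each library, and all nuclei outside the class had 2991 to 4280 and 2801 to 4268 CPM of the lists. The lists include Mog, Mag and Aqp4, which the rule limits in Cajal-Retzius nuclei. The sums are therefore a description, and their distance from the nuclei outside the class follows in part from the rule. The part of glial RNA in the differences of Cst3, Ptgds and Luzp2 was not tested.

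**Figure D5:**
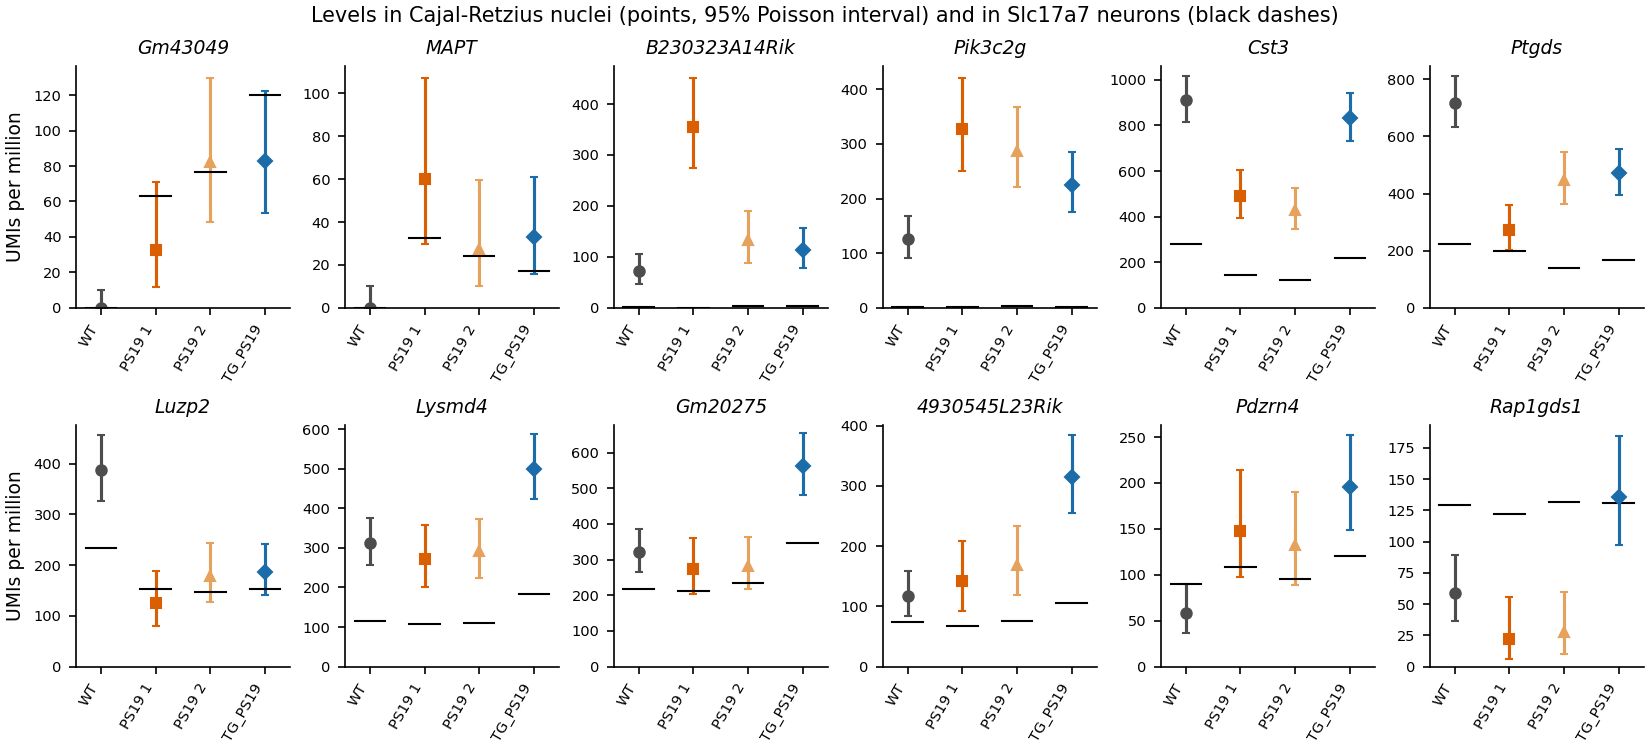
Levels of 12 genes in CPM in the Cajal-Retzius nuclei of each library (points, with 95% Poisson intervals for counting error) and in Slc17a7 neurons of the same library (black dashes). Gm43049 and MAPT were at 0 in WT, Cst3 was lower and Pik3c2g higher in both PS19 replicates than in WT and TG_PS19, and Lysmd4, Gm20275 and 4930545L23Rik were highest in TG_PS19.

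In TG_PS19 against PS19, the sex-linked genes led. Xist had 280 UMIs in TG_PS19 and 0 elsewhere, at least 125-fold higher than PS19 (adjusted p = 2.1e-55 by edgeR), and its antisense partner Tsix 48. Eif2s3y, on the Y chromosome, stood at 150, 191, 114 and 23.2 CPM, and was lower in TG_PS19 than in PS19 by 2.61 ± 0.52 (adjusted p = 7e-05). When the TG_PS19 nuclei were limited to the 14 with Y-linked and no Xist UMIs, 14 genes were called against PS19, of which 5 were also called over all nuclei, 4 of them in the same direction.

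The genes with the largest rises that were not sex-linked had 0 or 1 UMI in PS19. Ryr3 was at least 16.9-fold higher, the non-coding RNAs 4930509J09Rik and Gm10848 at least 16.5-fold and 9.34-fold, Slc35f3 at least 8.90-fold, Cdh8 at least 8.45-fold, Dgkg at least 7.56-fold and Shisa9 at least 4.89-fold, all against 0 UMIs in PS19. Egfem1 had 71 UMIs against 1. In TG_PS19 these 8 genes were found in 3.81% to 6.67% of nuclei, and 38 of the 71 Egfem1 UMIs lay in 1 nucleus.

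The higher calls without the 9 nuclei included several non-coding RNAs. Lysmd4, a LysM-domain gene, stood at 312 CPM in WT, 273 and 292 in PS19 and 501 in TG_PS19, and 73.3% of TG_PS19 nuclei carried it against 48.6%, 57.4% and 60.3%. Its difference from PS19 was 0.88 ± 0.27 with all nuclei (adjusted p = 0.063 by edgeR) and 1.03 ± 0.27 without the 9 (adjusted p = 0.042). The antisense RNAs Gm20275 (320, 273, 283 and 564 CPM) and Gm48678 (240, 185, 201 and 474 CPM) were higher by 1.08 ± 0.27 (adjusted p = 0.0063) and 1.35 ± 0.28 (adjusted p = 0.00022). TG_PS19 lay above the other 3 libraries in all 3 genes.

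The same 3 genes were higher in Slc17a7 neurons of TG_PS19. There the differences from PS19 were 0.84 for Lysmd4 (adjusted p = 8.1e-05), 0.71 for Gm20275 (adjusted p = 0.00023) and 0.66 for Gm48678 (adjusted p = 0.00026). Nrg3os and 4930545L23Rik, further antisense RNAs, behaved likewise: Nrg3os was higher by 1.03 ± 0.26 in Cajal-Retzius nuclei (adjusted p = 0.0054) and by 0.66 in Slc17a7 neurons (adjusted p = 0.00028), and 4930545L23Rik by 1.07 ± 0.31 (adjusted p = 0.036) and 0.64 (adjusted p = 0.0031). None of these 5 was called when the TG_PS19 nuclei were limited to the 14 with Y-linked UMIs, which gave fewer UMIs.

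Some genes were higher in TG_PS19 in Cajal-Retzius nuclei and were not called in Slc17a7 neurons. Tshz2, a zinc-finger factor, stood at 485 CPM in WT, 196 and 301 in PS19 and 521 in TG_PS19, higher by 1.11 ± 0.28 (adjusted p = 0.0055 by edgeR) against 0.07 in Slc17a7 neurons (adjusted p = 0.82). Rap1gds1, an exchange factor for small GTPases, stood at 58.5, 21.8, 27.4 and 136 CPM, higher by 2.49 ± 0.52 (adjusted p = 0.0002) against 0.12 (adjusted p = 0.65), with UMIs in 22.9% of TG_PS19 nuclei and at most 4 in any of them. Pcdh9, a protocadherin, stood at 708, 447, 443 and 1147 CPM and was higher by 1.43 ± 0.24 (adjusted p = 3.4e-07) and, without the 9 nuclei, by 1.11 ± 0.25 (adjusted p = 0.004). An interaction test asked where the effect of a genotype differed between Cajal-Retzius nuclei and Slc17a7 neurons, and called 51 of 6357 genes (0.802%) for PS19 against WT and 104 (1.64%) for TG_PS19 against PS19. Leaving out the 9 nuclei left 2 (0.0334%) and 1 (0.0167%). On simulated data the interaction test of the PS19 effect recovered 2 of 100 genes changed 2-fold and 43 of 100 changed 4-fold. Few calls therefore do not show that the classes responded alike. For TG_PS19 against PS19 over all nuclei the interaction test gave 1.10 ± 0.30 for Tshz2 (adjusted p = 0.017), 2.44 ± 0.51 for Rap1gds1 (adjusted p = 0.00021) and 1.24 ± 0.32 for Pcdh9 (adjusted p = 0.0086). These adjusted p became 0.13, 0.066 and 0.66 when the 9 nuclei were left out.

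The genes lower in TG_PS19 than in PS19 were few, and none was at least 4-fold lower in Cajal-Retzius nuclei than in Slc17a7 neurons. Hnrnph2, an RNA-binding protein gene, had 22, 15, 9 and 1 UMIs and Cfap97, a cilia- and flagella-associated gene, 20, 9, 13 and 1. Their PS19 levels were 18.0 times (counting interval 2.93 to 739) and 16.5 times (2.66 to 680) those of TG_PS19, with adjusted p of 0.013 and 0.034 by edgeR. Cpm, a carboxypeptidase gene enriched in these nuclei, stood at 167, 354, 260 and 116 CPM, lower in TG_PS19 by 1.33 ± 0.34 (adjusted p = 0.008). Gm27803, Sun1 and Gm30003 were lower by 1.98, 1.63 and 1.54. Without the 9 nuclei none of these 6 was called, with adjusted p from 0.051 for Cpm to 0.18 for Cfap97. Pcdh10 had 14, 45, 4 and 9 UMIs, 19 of the 45 in 1 nucleus, and its difference of -1.99 turned to 0.74 without PS19 replicate 1.

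In TG_PS19 against WT, Gm43049, Htr2b and Galntl6 were higher, as they were in PS19 against the same WT library. Chrm3, a muscarinic receptor gene, had 3, 4, 10 and 63 UMIs, 46 of the 63 in 1 nucleus, and Epha6 had 32, 10, 3 and 209, of which 100 lay in 1 nucleus. Cped1 had 3, 3, 8 and 40 UMIs, and all 40 lay in 1 TG_PS19 nucleus. A330015K06Rik had 16, 7, 6 and 101, and Grik1, the only lower call that was not sex-linked, had 94, 11, 11 and 9, with 77 of the 94 WT UMIs in 1 nucleus. Without the 9 nuclei the difference of Grik1 was -0.52 (adjusted p = 1 by edgeR).

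The genes Pdzrn4 and 4930545L23Rik were called in TG_PS19 against WT with at most 10 of their UMIs in any nucleus. Pdzrn4, a ubiquitin-ligase-like gene found in 12 nuclei of WT, 11 and 10 of PS19 and 19 of TG_PS19, stood at 58.5 CPM in WT, 147 and 132 in PS19 and 196 in TG_PS19, higher in TG_PS19 than in WT by 1.81 ± 0.43 (adjusted p = 0.0094 by edgeR) and by 2.29 ± 0.46 without the 9 nuclei (adjusted p = 0.0011). All 3 transgenic libraries lay above WT, and Slc17a7 neurons differed by 0.50 (adjusted p = 0.045). 4930545L23Rik stood at 117, 142, 169 and 315 CPM, higher by 1.498 ± 0.36 (adjusted p = 0.011).

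The gene lists of known pathways are described by their counts and medians; the lists were chosen with earlier results of these data known. Of the 18 genes of reelin signalling, 13 were tested. Only Dab1, the adaptor of the reelin receptors, was called, at 390 CPM in WT, 38.2 and 82.2 in PS19 and 461 in TG_PS19, lower in PS19 than WT and higher in TG_PS19 than PS19, against 0.755% of all genes called lower in the former and 1.73% called higher in the latter. Dab1 is a gene of reelin-receiving neurons and stood at 2713 to 3056 CPM in Slc17a7 neurons; 37 of the 140 WT UMIs lay in 1 nucleus, and no reelin pathway gene was called without the 9 nuclei. Pafah1b1, a downstream member at 337, 343, 484 and 308 CPM, was not called. The list's median difference was 0.15 in PS19 against WT (0.02 over all genes) and -0.10 in TG_PS19 against PS19 (-0.02 over all genes).

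Genes of the p53 family and cell survival, a list chosen because Trp73 sustains Cajal-Retzius neurons, had 9 of 16 members tested and 0 called in any comparison. Their median difference was 0.54 in PS19 against WT and -0.39 in TG_PS19 against PS19, beside 0.02 and -0.02 over all genes. Ntrk2, the BDNF receptor, stood at 827, 807, 958 and 657 CPM and Itch at 284, 256, 292 and 199. Bcl2, a survival gene, had 8, 4, 13 and 0 UMIs.

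Of the 20 glutamate receptor genes, 17 were tested. Of these, 4 were called lower in PS19 than WT (Grin2a, Grik1, Grm5 and Grm7), 6 higher in TG_PS19 than PS19 (among them Gria3, Grin2a, Grin2b, Grm5 and Grm7) and 3 higher in TG_PS19 than WT (Gria3, Grin2a and Grin2b), with Grik1 lower. Over all genes tested, 0.755% were called lower in the first comparison, 1.73% higher in the second, and 0.346% higher and 0.0629% lower in the third. The list's medians were -0.43, 0.50 and 0.70, beside 0.02, -0.02 and 0.00 over all genes. Without the 9 nuclei 15 were tested and 0 were called, with medians of 0.17, 0.02 and 0.27, beside 0.01, -0.02 and 0.00 over all genes. The abundant subunits of these nuclei, Gria1, Gria2 and Gria4, were not called with all nuclei or without the 9.

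The other lists held few calls. Among 23 voltage-gated channel genes, of which 21 were tested, Kcnd2 was lower in PS19 than WT, and Cacna1e, Kcnd2 and Kcnq3 were higher in TG_PS19 than PS19. Among 19 tested axon guidance genes Sema5a and Unc5d were lower in PS19 and Slit3, Unc5c and Unc5d higher in TG_PS19 than PS19, and among 8 tested GABA-A receptor genes Gabrb1 was higher. The shares over all genes tested were 0.755% lower in PS19 than WT and 1.73% higher in TG_PS19 than PS19. None of these list members was called without the 9 nuclei. The 16 tested genes of presynaptic release, the 7 of transmitter and chloride handling, the 9 of the unfolded protein and stress response, the 7 of oxidative phosphorylation and the 2 of activity-regulated genes had 0 calls in the 3 comparisons by edgeR, with all nuclei. Over all genes tested, 0.897%, 1.9% and 0.409% were called in the 3 comparisons, so a count of 0 in lists this short says little.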

How the data were processed

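Raw UMI counts per gene and nucleus from 4 libraries were used as deposited. Per the submitters' processing notes the authors made them with Cell Ranger 7.1.0 on GRCm38; the annotation release, strand setting and intron counting were not given in the sources used here. The labels state 10000 nuclei loaded and a median near 50000 reads per nucleus, and the files hold 12762 (WT), 4643 and 4924 (PS19) and 9719 (TG_PS19) barcodes. The count tables held 55401 mouse features and the human genes MAPT and SORL1; 54349 identifiers were found in GENCODE M21, the source of coordinates.

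The members, the gene lists and the tests were chosen with earlier results of these data known. Limits on UMIs and mitochondrial share removed 4 of 32048 barcodes. Counts were summed per library over the Cajal-Retzius nuclei (183422 to 358985 UMIs) and fitted over all 4 libraries with edgeR 4.0.16 (TMM scaling, filterByExpr, glmQLFit and glmQLFTest, the PS19 pair gives the single residual degree of freedom, 1, so WT and TG_PS19 are assumed to vary like it). Adjusted p under 0.05 was called. Both PS19 replicates were kept. They differed beyond counting noise (chi-square of 1.65 for each degree of freedom over 3871 genes), which does not show whether they came from separate animals. On simulated data 27 of 100 genes changed 2-fold and 96 of 100 changed 4-fold were recovered in PS19 against WT among 5747 genes, with 2 false calls. The simulation changed only genes of higher counts and drew every gene with the same spread. It therefore does not show the recovery of sparse genes, or the false calls where a few nuclei hold most UMIs of a gene. Alternatives were DESeq2 1.42.0, other scalings and filters, leaving out a replicate, stricter or thinned nuclei, and nuclei without the highest Scrublet scores (scanpy 1.11.5; doublets were otherwise kept).

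Named were, per comparison, up to 8 called genes with the largest rise and 8 with the largest fall among genes with at least 20 UMIs, up to 5 each way for the difference between classes, the called members and up to 4 of the highest of each list, and members of the Cajal-Retzius and tau lists, with sex-linked genes apart. Other genes, among them those called without the 9 nuclei rich in genes of other neurons (at least 1% of UMIs in 30 such genes), were named after their values were seen. Results of some genes that the rule names are not reported here. A fold against 0 UMIs was set against 3 counts over the group. Nuclei of 1 library are not replicates, and intervals cover counting error only.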

Additional observations from a re-analysis of the deposited data

Results flagged for a closer look

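The effect of each genotype was compared between Cajal-Retzius nuclei and Slc17a7 neurons of the same libraries by an interaction test (edgeR's quasi-likelihood test with a library block and Benjamini-Hochberg adjustment). The PS19 effect (PS19 against WT) differed between the classes in 51 of 6357 genes (0.802%) and the TG_PS19 effect (TG_PS19 against PS19) in 104 (1.64%). Without the 9 nuclei rich in genes of other neurons, 2 and 1 genes were left.

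The PS19 effect was more positive in Cajal-Retzius nuclei for Galntl6, by 2.51 (log2, adjusted p = 1.5e-08), for the cadherin Cdh4, by 1.22 (adjusted p = 0.017), and for Pid1, by 1.08 (adjusted p = 0.045). Pid1 stood at 192 CPM in WT, 316 and 393 in PS19 and 242 in TG_PS19. It was more negative for genes with 0 UMIs in both PS19 libraries, whose fitted difference is no measure of size. The adjusted p was 1.02e-06 for Shisa9, 0.00514 for Dgkg, 0.00512 for Klhl29, 0.00952 for Cdh8 and 0.0109 for Icam5. These 5 genes had 27, 13, 14, 12 and 14 UMIs in WT.

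The TG_PS19 effect was more positive in Cajal-Retzius nuclei for Ryr3 (adjusted p = 3.21e-09), 4930509J09Rik (4.63e-07), Slc35f3 (1.06e-05), Cdh8 (2.39e-05) and Dgkg (4.13e-05), all at 0 UMIs in PS19. It was more negative for the survival gene Bcl2, at 0 UMIs in TG_PS19 (adjusted p = 0.0402), and for Cfap97 by -4.12, the non-coding RNA Rmst by -1.60, Cobll1 by -1.54 and Cdh4 by -1.45 (log2, adjusted p = 0.0175, 0.037, 0.0053 and 0.00074). Cobll1 stood at 240, 294, 329 and 225 CPM in Cajal-Retzius nuclei and at 18.0, 12.6, 25.3 and 40.5 in Slc17a7 neurons. Without the 9 nuclei the adjusted p were 0.066 for Cdh4, 0.14 for Cobll1, 0.19 for Cfap97, 0.30 for Bcl2 and 0.35 for Rmst. The genes left were Galntl6 and Tshz2 for the PS19 effect and Galntl6 for the TG_PS19 effect.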

How the results depend on the processing

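Counts of called genes depended on which nuclei and which tool were used. In PS19 against WT, 57 became 0 with DESeq2 (43 at an unadjusted p under 0.05, against 358 with edgeR), 18 without the highest Scrublet scores, 13 after thinning, and, in sets chosen after seeing the data, 23 without nuclei with glial genes, Slc17a7 or over 6000 UMIs, 7 without the 9 nuclei, 8 with TG_PS19 also limited to Y-linked nuclei and 10 with thinning too. In TG_PS19 against PS19 the 121 became 15 with DESeq2, 24 after thinning, 14 with Y-linked TG_PS19 nuclei, and 24, 28, 4 and 4 in the same later sets. In TG_PS19 against WT the 26 became 16 with no filter on low counts, 1 with DESeq2, 66 with at least 3 of 4 genes, 65 without the highest Scrublet scores, 4 after thinning, 8 with Y-linked nuclei, and 4, 8, 5 and 3 in the later sets. Fewer nuclei also meant fewer genes tested. The interactions fell to 2 and 1 without the 9 nuclei.

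The share of nuclei was 0.486%, 0.603%, 0.711% and 0.288% (WT, PS19 replicates 1 and 2, TG_PS19) with at least 3 of 4 genes, 4.42%, 6.54%, 5.92% and 4.29% of neurons, and 4.57%, 6.64%, 5.92% and 4.33% of neurons and Cajal-Retzius nuclei. After thinning, which kept only nuclei with at least 2000 UMIs, it was 0.886% in WT and 0.884% in TG_PS19.

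Some single-gene differences (log2) changed direction, and the cause was not tested. In PS19 against WT, Grik1 gave 0.39 without the highest Scrublet scores, 0.60 without nuclei with glial genes, Slc17a7 or over 6000 UMIs, 0.051 without the 9 nuclei and 0.061 with Y-linked TG_PS19 nuclei too, and Grm7 gave 0.85 in both of the last sets (0.852 and 0.854). In TG_PS19 against PS19 without the 9 nuclei, the values were -0.47 for Grm7, -0.049 for Kcnd2, -0.94 for Cacna1e and -0.45 for Slit3, which also gave -0.55 without nuclei with glial genes, Slc17a7 or over 6000 UMIs and -0.065 without the 9 after thinning. Kcnq3 gave -0.050 after thinning and -0.33 without the 9 too. Pcdh10 gave 0.74 without PS19 replicate 1 and -2.95 without replicate 2. With Y-linked TG_PS19 nuclei only, and then without the 9 nuclei too, Gabrb1 gave -0.97 and -2.42 and Pde4b -0.49 and -0.39. In the same sets Csmd3 gave -6.20 ± 3.52 and -6.13 ± 3.77 (SE), Slc8a1 -0.53 and -0.42 and Uty 0.64 and 0.74. In the former set Cacna1e gave -0.26 and Eif2s3y 0.092, and in the latter Grm7 gave -0.95 and Gpc6 -6.16 ± 3.93. In TG_PS19 against WT, Y-linked nuclei gave -1.93 for Grin2a, -0.32 for Grin2b and 0.098 for Eif2s3y. There Galntl6 gave -7.41 ± 2.28 without the 9 too, and Grin2a gave -0.059 without the 9 nuclei. UMIs of Uty and Eif2s3y helped choose the Y-linked TG_PS19 nuclei, so their change of direction follows at least in part from that choice. The values of Csmd3, Gpc6 and Galntl6 rest on at most 14 TG_PS19 nuclei and are no measure of size. The Cobll1 interaction gave 0.041 against inhibitory neurons.

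No paired analysis was possible because only PS19 libraries carry replicate numbers. With no replicate block, the library block of the interactions left out, 43 and 91 genes were called. Without PS19 replicate 1 or 2 no residual degree of freedom is left, so those differences have no test. The differences rested on 61 to 140 nuclei a library. On simulated data, with changes only in genes of higher counts, 27 of 100 genes changed 2-fold were recovered in PS19 against WT. For the interaction of the PS19 effect 2 of 100 were recovered, so changes of that size could go uncalled at this depth.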
